A study of Homo sapiens with 4 samples.

Results

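MGP, which encodes matrix Gla protein, TFPI2, TFPI and SERPINE2, which encode serine protease inhibitors, and TIMP1, TIMP2 and TIMP3, which encode tissue inhibitors of metalloproteinases, were examined in SK-BR-3 cells after p53 and Pontin knockdown. These 7 genes were taken by symbol, out of 19775 genes with a probe set of their own. MGP and TFPI2 were chosen by their p53 ratios, being higher with p53 shRNA, so those ratios are a description and support nothing further. All probe sets that carry only one of these symbols were used, 19 of 54675 in all: 2 for MGP, 2 for TFPI2, 5 for TFPI, 2 for SERPINE2, 1 for TIMP1, 3 for TIMP2 and 4 for TIMP3.

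SK-BR-3 is an established human breast cancer line in which HER2 is amplified and p53 carries a missense mutation, and all 4 groups share this. Cells carried a p53 shRNA vector or its control, called both control shRNA and empty vector in the labels, and were selected with puromycin. They then received siRNA against Pontin, or were in the arm titled sicon, which the labels do not explain. RNA was taken 24 h after siRNA transfection, and 200 ng was labelled for each Affymetrix array. One group had the control vector and one the p53 vector, both in the sicon arm. One had the control vector plus siRNA to Pontin, and one both knockdowns. Each group was hybridized to 1 array. Whether the selected cells were pools or single clones, and whether the siRNA arms came from the same selected population, is not given in the labels.

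With 1 array per group there is no replicate and no p-value. Each knockdown was read in 2 matched pairs, and a gene was called where both pairs differed at least 1.5-fold (0.585 in log2) in the same direction. Where a gene had several probe sets, the one with the highest mean log2 signal stood for it. Genes below a mean signal of 15.3, the median of all probe sets, were left out. That kept 12066 genes, among them all 7 members. Genes at or above 110, the 75th percentile, are called bright: 7744 genes, of which MGP and TIMP2 are members.

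Signals of any 2 arrays correlated at 0.981 to 0.988 over the genes kept. RUVBL1, which encodes Pontin, was at 477.7 and 398.2 without and 127.4 and 65.8 with Pontin siRNA. The array with both knockdowns stood apart: its median signal was 19.6 against 15.9 to 16.5 on the others, and its 18 hybridization controls averaged 1.42 times those of the control array. The first pair of each knockdown, over control shRNA, does not use that array. The first p53 pair and the first Pontin pair share the control array.

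Secreted inhibitors of this kind set how far proteases act outside the cell. Matrix Gla protein is carboxylated in a vitamin K-dependent step, binds calcium and bone morphogenetic proteins, and is known as an inhibitor of soft-tissue calcification. TFPI blocks factor Xa and the complex of tissue factor with factor VIIa through Kunitz domains. TFPI2, a related Kunitz inhibitor that binds to extracellular matrix, acts on plasmin and trypsin. SERPINE2 encodes protease nexin-1, a serpin that inhibits thrombin and plasminogen activators, and the TIMPs bind the active site of matrix metalloproteinases.

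MGP was higher on both arrays carrying the p53 shRNA. Pontin siRNA gave somewhat lower signals. Its main probe set read 172.5 in the control, 691.2 after p53 shRNA, 138.1 after Pontin siRNA and 462.5 after both. The order was p53 shRNA, both, control and Pontin siRNA, and the lower array with p53 shRNA was 2.68 times the higher array without it. These signals gave p53 ratios of 4.01-fold without and 3.35-fold with Pontin siRNA, log2 ratios of 2.0 and 1.74. Of all genes kept, 6 had a higher mean p53 ratio than the 1.87 of MGP, and 0.22% of bright genes were called higher.

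With Pontin siRNA, MGP was 1.25-fold lower in control shRNA cells and 1.49-fold lower in p53 shRNA cells. The second ratio lay just under the 1.5-fold limit, and the first was well under it. MGP was therefore not called for Pontin siRNA. Its log2 signal with both knockdowns was 0.26 below the sum of the single log2 effects (a departure of -0.26). After centring each array on its median the departure was -0.51, and with the mean over both probe sets, which brings in the dim one, it was 0.78. Over bright genes the median size of that departure was 0.123.

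The second MGP probe set was near the bottom of the signal range and lay below the filter. It gave 0.5, 5.3, 0.2 and 7.5 in the same order of arrays. Both p53 shRNA arrays were again above both others. Ratios of signals this low have no stable size, and the MGP result rests on 1 probe set. That probe set is of the _s_at type, whose probes can match several transcripts. Without such types MGP has no probe set above the filter.

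TFPI2 was higher with p53 shRNA on both of its probe sets. The brighter read 39.2 in the control, 120.8 after p53 shRNA, 53.6 after Pontin siRNA and 130.9 after both, which is 3.08-fold and 2.44-fold higher with p53 shRNA. The other gave 25.8, 84.0, 22.3 and 76.5, which is 3.26-fold and 3.43-fold. On each probe set the lower of the p53 shRNA arrays was above the higher of the arrays without it. Of the genes kept, 21 had a higher mean p53 ratio than the 1.46 of TFPI2. It was not bright, with a mean signal of 75.9, and 3.47% of kept genes that were not bright were called higher.

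The TFPI2 probe sets did not share a direction for Pontin siRNA. The brighter gave log2 ratios of 0.45 and 0.12 and the other -0.21 and -0.13, and neither was called. Departures from additivity were -0.34 and 0.08, against a median size of 0.363 over genes kept that were not bright. With both knockdowns TFPI2 was 3.34-fold and 2.97-fold above the control on the 2 probe sets.

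TFPI, the related inhibitor of the tissue factor pathway, showed little difference on the probe sets above the filter. The brightest gave 44.6, 42.1, 45.2 and 43.9 for control, p53 shRNA, Pontin siRNA and both. These 4 signals lay within 0.10 of each other in log2, the narrowest range of any member probe set. The next gave 26.2, 31.8, 31.8 and 31.7, with control shRNA lowest and the other arrays level. Of the 3 TFPI probe sets below the filter, one gave 17.3 and 16.9 without and 10.8 and 9.0 with Pontin siRNA, 1.6-fold and 1.88-fold lower. The others, at 8.0, 11.3, 7.5 and 13.0 and at 6.8, 5.7, 8.3 and 4.4, were not called for either knockdown.

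The upstream sequences of TFPI2 and TFPI are shown because these related genes differed in their p53 ratios. They are from RefSeq on GRCh38.p14, 250 bases before the start site on the gene's strand. Capitals mark GGGCGG, the core of a GC box, on either strand. TFPI2 is at chr7:93890754-93891003 and TFPI at chr2:187554436-187554685, both on the minus strand.
TFPI2: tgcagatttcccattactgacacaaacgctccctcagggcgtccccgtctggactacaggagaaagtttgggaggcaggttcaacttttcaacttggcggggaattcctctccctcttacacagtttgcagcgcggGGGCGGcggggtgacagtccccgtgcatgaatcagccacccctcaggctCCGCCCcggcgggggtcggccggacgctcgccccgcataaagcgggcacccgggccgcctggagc
TFPI: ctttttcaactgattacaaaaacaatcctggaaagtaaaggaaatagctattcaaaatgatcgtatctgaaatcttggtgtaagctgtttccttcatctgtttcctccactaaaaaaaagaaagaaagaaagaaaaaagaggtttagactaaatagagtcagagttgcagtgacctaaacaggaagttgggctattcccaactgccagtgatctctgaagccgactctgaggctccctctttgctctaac

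The TFPI2 window was 64.4% G or C with 20 CG dinucleotides, and that of TFPI was 38.4% with 2. The median of 35116 upstream windows was 58% and 11. GGGCGG occurred 2 times in the TFPI2 window, counting both strands, and 0 times in that of TFPI, while 42.6% of all windows held it. The other motifs searched, also on both strands, were in neither window. Of all windows, 10.7% held the TATA box letters TATAAA, 4.2% held the AP-1 site TGACTCA, 6.34% held the E-box CACGTG, and 32% held the CCAAT box. No letters searched overlapped another motif in these windows, and a match is a description of the sequence only. SERPINE2, TIMP1 and TIMP3 also had windows in the table, and MGP and TIMP2 were not matched there.

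SERPINE2 had low signals whose pairs went opposite ways. Its brighter probe set read 21.6 in the control, 9.3 after p53 shRNA, 13.5 after Pontin siRNA and 21.4 after both. The single knockdowns were lower than control, and both together were level with it. The log2 p53 ratios were -1.22 and 0.66 and the Pontin ratios -0.68 and 1.2, a departure from additivity of 1.88, or 0.91 with a pseudocount of 16. Among kept genes that were not bright, 31.8% departed by at least 1.5-fold, and pairs each past 1.5-fold in opposite directions were seen for 2.45% with p53 shRNA and 2.29% with Pontin siRNA. The other probe set gave 0.4, 2.2, 0.6 and 11.5, below the filter, and was higher in both p53 pairs (2.46 and 4.26) and both Pontin pairs (0.58 and 2.39). The probe sets thus went opposite ways in the first pair of each knockdown.

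TIMP1 was near level on 3 arrays, at 94.0 in the control, 99.0 after p53 shRNA and 93.1 after Pontin siRNA, and was at 74.6 after both. Its p53 log2 ratios were 0.07 and -0.32 and its Pontin ratios -0.01 and -0.41. TIMP1 rests on 1 probe set, and the lowest signal was on the array that stood apart.

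TIMP2, which encodes an inhibitor that also takes part in the activation of pro-MMP2 by MMP14, had no call on any of its 3 bright probe sets. The brightest gave 1980.6, 2222.4, 2104.6 and 2123.5 for control, p53 shRNA, Pontin siRNA and both. All of its log2 ratios lay between -0.07 and 0.17. The second gave 905.3, 1035.3, 985.9 and 1067.0. The third gave 328.2, 273.0, 416.0 and 433.7, with Pontin log2 ratios of 0.34 and 0.67, of which the second alone passed 1.5-fold. The TIMP2 probe sets differed in this: the brightest had Pontin ratios of 0.09 and -0.07.

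TIMP3, whose protein binds extracellular matrix and also inhibits ADAM proteases, was lower with Pontin siRNA on its brightest probe set. Signals were 38.7 in the control and 40.0 after p53 shRNA, and 20.9 after Pontin siRNA and 23.9 after both. Both Pontin siRNA arrays lay under both others. The differences were 1.85-fold in control shRNA cells and 1.67-fold in p53 shRNA cells, log2 ratios of -0.89 and -0.74. With p53 shRNA the log2 ratios were 0.05 and 0.19.

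The upstream window of TIMP3, shown because it is the member called for Pontin siRNA, is at chr22:32801455-32801704 on the plus strand. Capitals mark GGGCGG or CCAAT on either strand.
TIMP3: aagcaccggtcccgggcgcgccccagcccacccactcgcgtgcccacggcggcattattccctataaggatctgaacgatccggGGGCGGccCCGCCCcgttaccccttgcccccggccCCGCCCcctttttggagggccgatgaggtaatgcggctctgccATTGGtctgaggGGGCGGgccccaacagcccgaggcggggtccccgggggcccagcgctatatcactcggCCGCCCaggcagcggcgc
This window was 72.4% G or C with 26 CG dinucleotides, and held GGGCGG 5 times and CCAAT 1 time.

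The other TIMP3 probe sets, all below the filter, did not show the same order. One gave 9.5, 14.2, 11.5 and 11.2, with control lowest. Another gave 6.8, 7.4, 11 and 2.5, and the last 3.9, 3.7, 1.3 and 12.7. The TIMP3 call thus rests on 1 probe set of the _s_at type. It was lost with a pseudocount of 16, where the mean Pontin log2 ratio was -0.53, and TIMP3 fell below the filter when its probe sets were averaged.

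**Figure D1:**
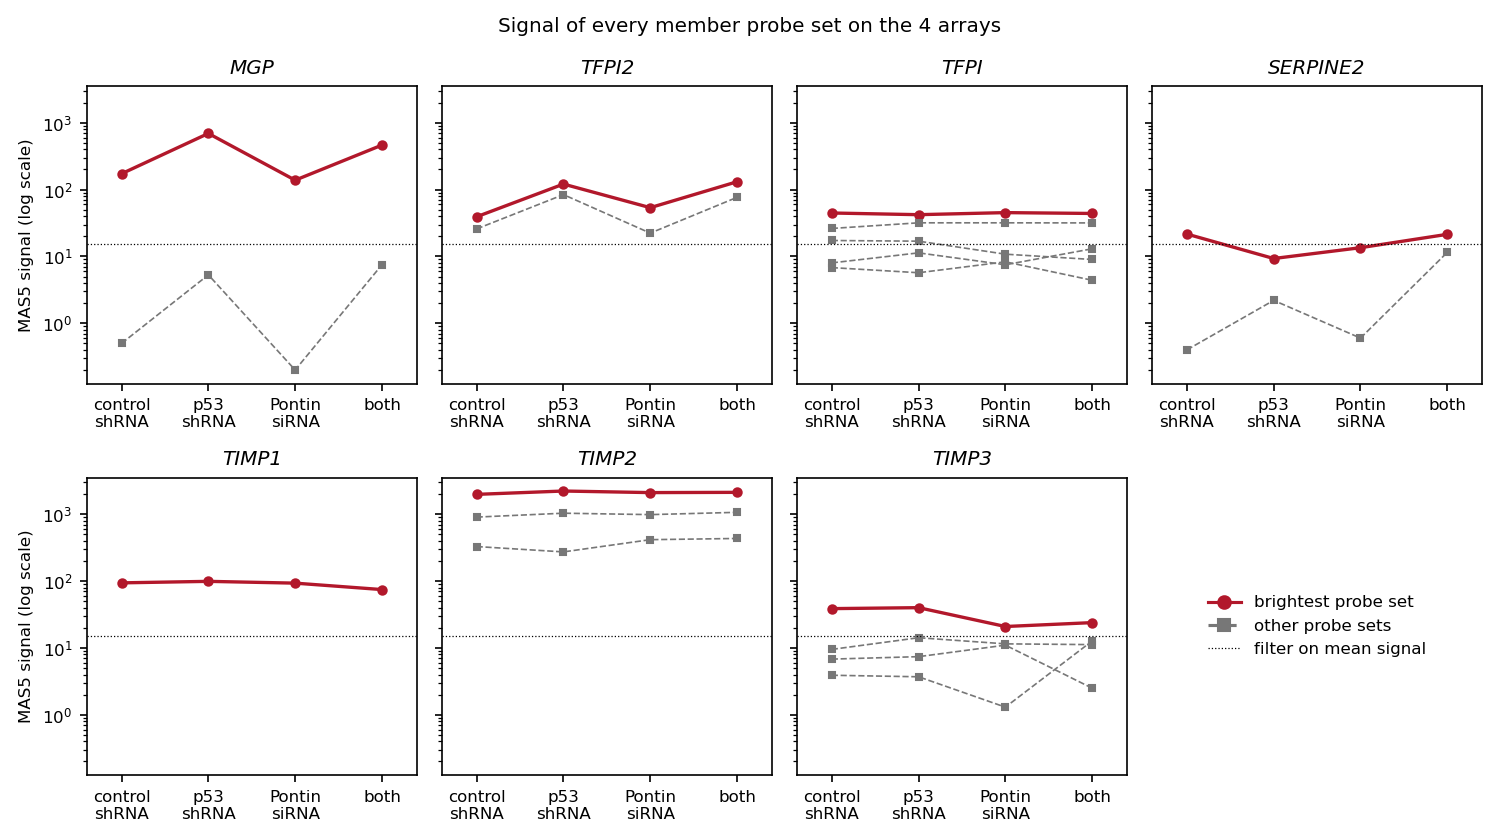
MAS5 signal (log axis) of every probe set of the 7 genes on the 4 arrays, 1 point per array, with the brightest probe set of each gene in red and the filter on mean signal as a dotted line. MGP and TFPI2 are higher on both arrays with p53 shRNA, the brightest TIMP3 probe set is lower on both arrays with Pontin siRNA, and TFPI, TIMP1 and TIMP2 are near level on their brightest probe sets.

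By gene, 2 of 7 members were called higher with p53 shRNA, MGP and TFPI2, and 0 lower. Of all genes kept 1.38% were called higher and 0.862% lower, and nothing is read from this count because these 2 genes were chosen for it. The median of the members' mean p53 log2 ratio was 0.09, against -0.0024 over all genes kept. Of the 5 members not chosen for their p53 ratio, 0 were called. Their mean log2 ratios ran from -0.28 (SERPINE2) to 0.12 (TIMP3).

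With Pontin siRNA 1 of 7 members was called lower, TIMP3, and 0 higher. Of all genes kept 1.24% were called lower and 1.16% higher, and 1.5% of genes that were not bright were called lower. The median of the members' mean Pontin log2 ratio was 0.011, against 0.0098 over all genes kept. MGP was at -0.45, TIMP1 at -0.21, TIMP2 at 0.01, TFPI at 0.04, SERPINE2 at 0.26 and TFPI2 at 0.28. Counted over the 11 member probe sets above the filter, p53 shRNA gave 3 higher calls, and Pontin siRNA gave 1 lower call. The share of all probe sets above the filter was 1.53% and 1.23%. All 3 higher calls are on MGP and TFPI2, which were chosen for that rise, so nothing is read from the p53 count.

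**Figure D2:**
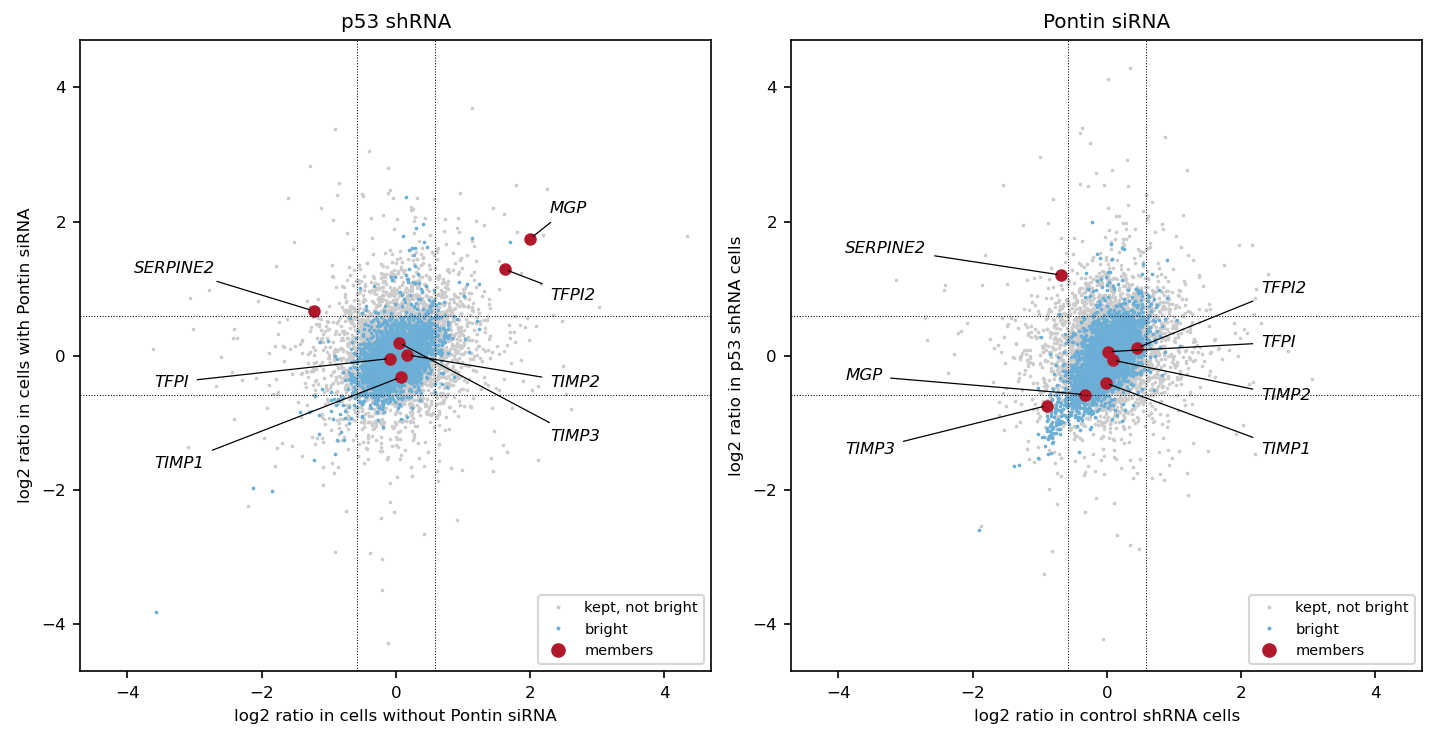
Log2 ratio in one matched pair against the other for p53 shRNA (left) and Pontin siRNA (right). Each point is a gene kept (blue where bright, grey otherwise), dotted lines mark 1.5-fold, and red points are the 7 members. MGP (2.0 and 1.74) and TFPI2 (1.62 and 1.29) lie at the upper right for p53 shRNA, TIMP3 lies in the lower left corner region for Pontin siRNA, and SERPINE2 lies in the upper left of both panels.

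Without the array with both knockdowns, each value is the ratio of 1 knockdown over control shRNA. MGP and TFPI2 were then higher at 2.0 and 1.62 with p53 shRNA, and TIMP3 was lower at -0.89 with Pontin siRNA. SERPINE2 was lower with each knockdown, at -1.22 and -0.68. By 1 pair alone, 5.03% of genes kept were at least 1.5-fold higher with p53 shRNA, 3.77% were lower, and 3.89% were lower with Pontin siRNA.

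In gene order on GRCh38.p14, the neighbours of MGP and TFPI2 did not pass 1.5-fold in both p53 pairs among the genes kept. ERP27, an endoplasmic reticulum protein gene next to MGP, was at 267.2, 329.9, 233.4 and 242.3, with p53 log2 ratios of 0.30 and 0.05. GNGT1, a G protein gamma subunit gene next to TFPI2, was at 27.6, 22.1, 14.1 and 24.4, with -0.32 and 0.79. ART4 and CALCR, on the other sides, had signals of at most 9.2 and 13.6. TIMP1 lies within the span of the synapsin gene SYN1 and TIMP3 within that of SYN3. Both synapsin genes were below the filter, with signals of at most 14.2 and 8.6.

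Genes of 7 lists were examined: proteases, other inhibitors, the vitamin K cycle and Gla proteins, bone morphogenetic protein signalling, and receptors and partners. F2, F10 and PLG, the genes of thrombin, factor X and plasminogen, were below the filter and were not assessed. With p53 shRNA, 0 of the 61 list genes kept were called higher and 0 lower. Of all genes kept 1.38% and 0.862% were, so counts of 0 are near these shares and nothing is read from them. The median mean log2 ratio of the list genes was 0.0766, against -0.0024 over all genes kept. With Pontin siRNA 1 was called higher and 3 lower, where the shares over all genes were 1.16% and 1.24%, and the median was 0.019. The same shares stand beside the counts of each list below, and nothing is read from a count of 0 there.

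Among genes of coagulation and plasminogen activation, F3 was the bright one with a call. F3 encodes tissue factor, which with factor VIIa is the target of TFPI. Its signals were 385.9 in the control, 537.2 after p53 shRNA, 228.8 after Pontin siRNA and 313.1 after both. Pontin siRNA gave log2 ratios of -0.75 and -0.78, a call, and p53 shRNA 0.48 and 0.45, which missed 1.5-fold in each pair. F3 remained called lower with Pontin siRNA under all alternatives that used 1.5-fold in both pairs.

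F7, the factor VII gene, was called higher with Pontin siRNA at low signal, from 14.0 to 28.7 and from 11.9 to 20.1. Both F7 signals without Pontin siRNA lay below the filter. The filter applies to the mean over arrays, so the higher signals with Pontin siRNA kept F7 in. Its second probe set, with signals of at most 3.0, gave 0.55 and -0.10. The call was lost after each of the normalizations tried. PLAU, which encodes urokinase, was at 177.8, 247.9, 147.3 and 229.5, with p53 log2 ratios of 0.48 and 0.64. Its receptor gene PLAUR was at 188.1, 232.0, 183.8 and 170.0. PROCR, the endothelial protein C receptor gene, was at 647.0, 455.9, 507.7 and 345.4, with p53 ratios of -0.51 and -0.56. PLAT, the tissue plasminogen activator gene, was below the filter at 4.6 or less. Of the 8 genes of this list kept, 1 was called higher and 1 lower, both with Pontin siRNA. Over all genes kept the shares were 1.16% and 1.24%, and nothing is read from these counts.

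Of 18 matrix metalloproteinase genes, 9 were kept and 0 were called for either knockdown. MMP9, a gelatinase gene, was at 157.9, 192.5, 164.6 and 157.7, the control level on the array with both. MMP14, a membrane-type protease gene, was at 29.5, 22.5, 31.9 and 45.8, with Pontin log2 ratios of 0.11 and 1.03. MMP2 was below the filter, at 4.5 to 17.8. Of the ADAM and ADAMTS genes 7 were kept and 0 called. ADAM17, the TACE gene that TIMP3 is known to inhibit, was at 542.4, 622.6, 517.6 and 588.9, and ADAM10 at 2096.6, 2379.7, 2174.7 and 2328.3. The p53 log2 ratios of ADAM17 were 0.20 and 0.19.

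Of the other secreted protease inhibitors 10 were kept and 0 called. SERPINA3, the antichymotrypsin gene, was at 46.0, 32.1, 61.0 and 58.9, with Pontin log2 ratios of 0.41 and 0.88. The cystatin genes CST3 and CST6 were at 82.9, 118.0, 112.9 and 134.8 and at 52.8, 87.1, 64.7 and 58.9. The Kunitz inhibitor genes SPINT1 and SPINT2, which restrain membrane serine proteases, had p53 log2 ratios of 0.05 and 0.13 and of 0.02 and -0.02. SLPI, a leukocyte protease inhibitor gene, was at 933.8, 1028.2, 881.3 and 833.6.

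The list of the vitamin K cycle, which makes matrix Gla protein active, and of Gla proteins gave 8 genes kept and 0 called. GGCX, the gamma-carboxylase gene, was at 547.1, 492.6, 604.0 and 544.6, and VKORC1, the vitamin K epoxide reductase gene, at 1171.9, 1211.7, 1203.9 and 1221.9. FAM20C, the secretory kinase gene, was below the filter on average, at 3.7 to 21.6. GAS6, another Gla protein gene, had low signals of 12.7, 38.6, 36.3 and 14.4, with its pairs at least 1.5-fold apart in opposite directions for each knockdown.

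Of 11 kept genes of bone morphogenetic protein signalling and mineralization, 0 were called with p53 shRNA. With Pontin siRNA 2 were called lower, beside 1.24% of all genes kept, and nothing is read from this count. ID1, a target gene of that signalling, was at 995.8 and 1042.1 without and 591.5 and 694.5 with Pontin siRNA. Its log2 ratios were -0.75 and -0.59. The second ratio lay just past the limit, and the ID1 call was lost after quantile and cyclic loess normalization and with the pseudocount of 16. ID2 and ID3 did not share it, with Pontin ratios of -0.05 and 0.30 and of 0.03 and 0.14. BMP4, a ligand gene, was at 23.9 and 22.6 without and 11.2 and 13.1 with Pontin siRNA, and was not called with that pseudocount. Both BMP4 signals with Pontin siRNA lay below the filter, and the higher signals without it kept BMP4 in. ID1 and BMP4 each rest on 1 probe set of the _s_at type. BMP7 was at 98.7, 107.9, 84.4 and 120.7, and BMP2 below the filter at 1.2 to 12.1.

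Of 8 kept receptors and partners, 0 were called. RECK, which encodes a membrane-anchored metalloproteinase inhibitor, was at 94.5 and 85.9 without and 136.5 and 136.1 with p53 shRNA, log2 ratios of 0.53 and 0.66. VLDLR, which encodes a lipoprotein receptor that clears complexes of serpins, was at 238.1, 378.8, 301.6 and 450.0, with p53 ratios of 0.67 and 0.58. These genes missed the limit in 1 pair, and VLDLR was called after quantile and cyclic loess normalization. CD63, which encodes a TIMP1 binding partner, was at 3756.9, 3668.8, 3365.1 and 3028.9. LRP1 was below the filter, at 4.3 to 13.4.

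**Figure D3:**
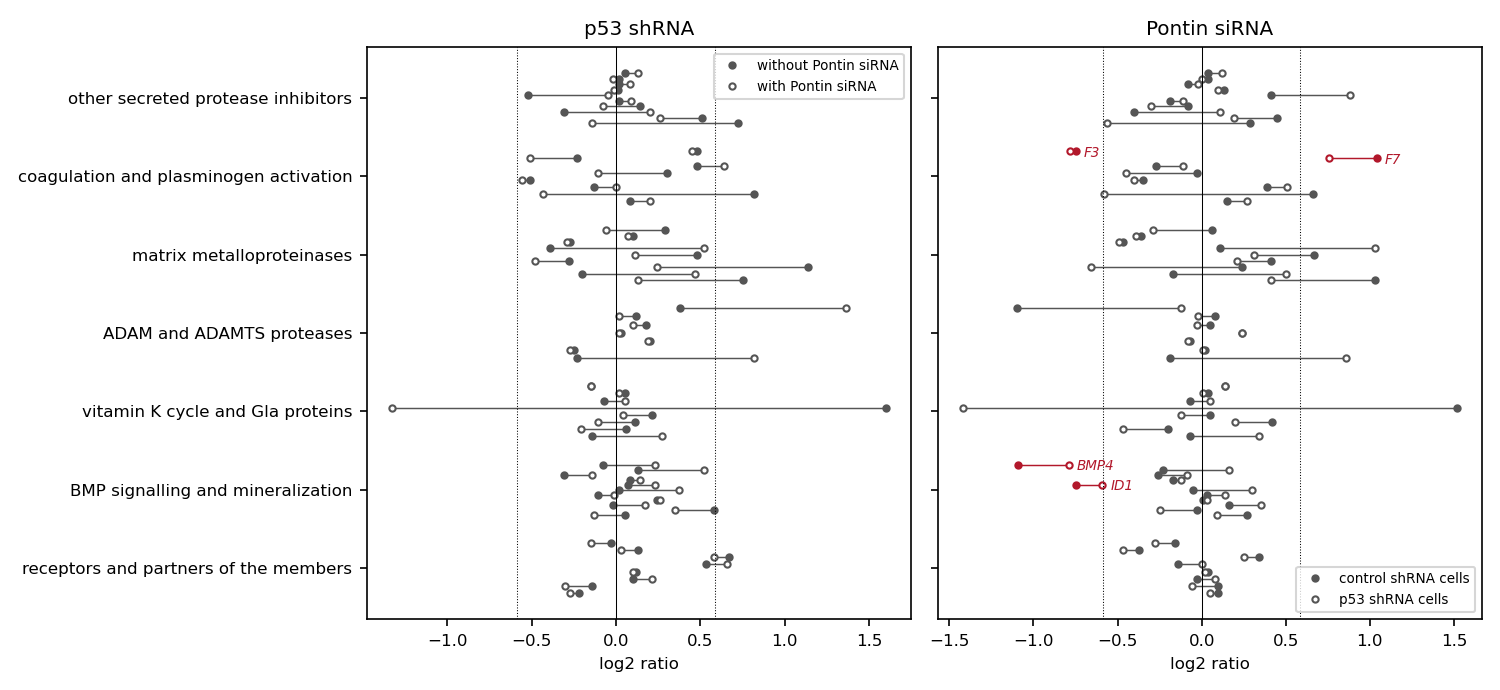
Log2 ratios of the kept genes of 7 lists with p53 shRNA (left) and Pontin siRNA (right). Each line joins the 2 matched pairs of a gene (filled and open points), dotted lines mark 1.5-fold, and called genes are in red with their names. No gene is called with p53 shRNA, and F3, F7, BMP4 and ID1 are called with Pontin siRNA.

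Bright genes with the pattern most like MGP over the 4 arrays were found by Euclidean distance between log2 signals centred on each gene's mean. HDAC8, a histone deacetylase gene, was nearest at 0.23, followed by BASP1 at 0.62, COX7B2 at 0.89, CCN2 at 0.90 and SCIN, an actin-severing protein gene, at 0.93. Only 6 bright genes lay within 1 of MGP. Their likeness includes the p53 difference for which MGP was chosen. HDAC8 rests on its brightest probe set: the mean p53 log2 ratios of its 3 probe sets were 1.70, 1.03 and -0.10. SCIN had 4 probe sets with mean ratios from 0.69 to 1.22. The other probe set of BASP1, at a mean signal of 2.38, gave p53 log2 ratios of 1.04 and -0.75.

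For TFPI2 the nearest were EGLN3, a prolyl hydroxylase gene, at 0.48, CDCP1, a membrane protein gene, at 0.58, HDAC8 at 0.71, COX7B2 at 0.73 and the noncoding gene STX17-DT at 0.75. Their likeness too includes the p53 difference for which TFPI2 was chosen. The other probe set of STX17-DT, at a mean signal of 2.26, gave p53 log2 ratios of -3.38 and 1.32. CDCP1 was at 156.1 and 165.1 without and 315.9 and 306.7 with p53 shRNA. Its other probe sets, at mean signals of 10.7 and 15.4, gave uneven p53 log2 ratios. These were 0.31 and 3.1, and 0.15 and 2.09. The distance between MGP and TFPI2 was 0.85, and 60 bright genes lay within 1 of TFPI2. TFPI2 differs from MGP in its Pontin ratios, 0.45 and 0.12 against -0.32 and -0.58.

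**Figure D4:**
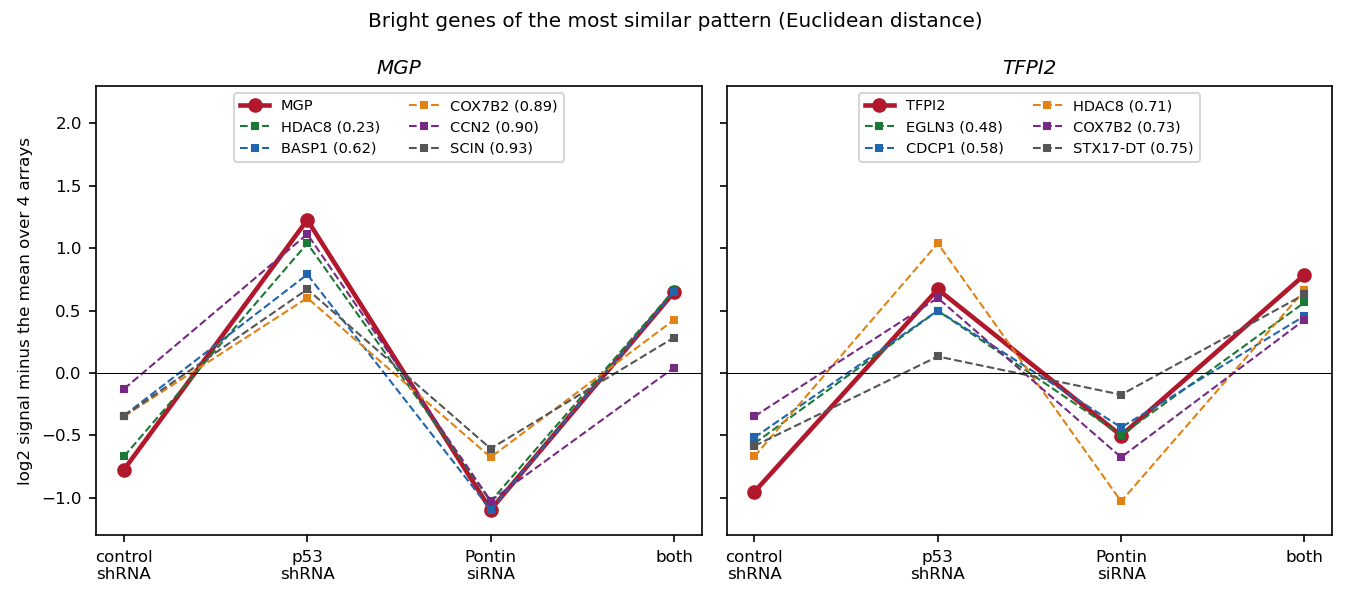
Log2 signal minus the gene's mean over the 4 arrays for MGP (left) and TFPI2 (right) in red, with the 5 nearest bright genes and their Euclidean distances. All lines are higher with p53 shRNA and with both than with control or Pontin siRNA. These genes were picked for likeness to MGP or TFPI2, which were chosen for that rise, so nothing is read from this. HDAC8 runs closest to MGP (0.23) and EGLN3 closest to TFPI2 (0.48).

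Markers of other cell types were checked, since MGP and TFPI2 are also known from stromal and endothelial cells. Luminal and HER2 genes had summed signals of 34685 to 40476. The E-cadherin gene CDH1, one of the 7 genes in that list, was at 1.8 to 13.0, below the filter. The 7 stromal genes summed to 215, 200, 212 and 230, most of it COL1A1, and the other 6 were below the filter at 18.5 or less. Of these, COL1A2 (10.7, 15.2, 6.9 and 18.4) and VIM (7.8, 10.8, 3.9 and 18.5) were higher on both arrays with p53 shRNA, in the direction of MGP and TFPI2. DCN (10.1, 6.5, 11.5 and 8.9) and LUM (8.9, 7.0, 11.4 and 6.2) went the other way, lower on both. COL3A1 (4.8, 6.4, 0.9 and 1.0) was higher with p53 shRNA within each matched pair, with log2 ratios of 0.42 and 0.15. Its p53 shRNA arrays were not both above both others. PDGFRB showed neither order. The 4 immune genes summed to 79.6, 82.7, 67.9 and 75.6. The 4 endothelial genes summed to 106 and 102 without and 152 and 162 with p53 shRNA, in the direction of MGP and TFPI2. CDH5 was at 67.9 and 68.5 without and 87.1 and 105.8 with p53 shRNA, and PECAM1 at 33.0, 37.6, 27.5 and 40.7. VWF was at 3.0, 8.1, 2.9 and 3.1 and KDR at 1.8, 19.4, 2.9 and 12.0, below the filter, and none of the 4 was at 0. Of the endothelial genes 2 were kept and 0 called, and the part of these stromal and endothelial genes in the MGP and TFPI2 ratios was not tested.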

How the data were processed

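RNA of SK-BR-3 cells was measured on 1 Affymetrix array per group, 4 arrays in all. The deposited values are linear MAS5 intensities (the submitters' processing notes name MAS5, with no version). Without its lowest and highest 2%, each array had a mean of 150.0. The p53 transcript level is not reported here. Gene names came from the platform table and were brought up to date by Entrez identifier (41037 of 41091 with 1 symbol matched), and 62 control probe sets were left out. Signals were taken to log2 without further normalization, and the 14 signals of 0, none on a member, were set to 0.1. Pairs, calls and the filter are as given in the text. The call was also run on simulated arrays with known changes. Their noise was set from these same 4 arrays, so this says nothing about variation between replicate arrays. Named genes were the members, called list genes, fixed examples, genomic neighbours and the 5 nearest bright genes. Other list genes named were chosen after their values were seen. Members, lists and tests were chosen with earlier results of these data known. Alternatives were 3 normalizations (limma 3.58.1 in R 4.3.3), a pseudocount of 16, probe set choice, filters and a 2-fold limit. Leaving out the array with both knockdowns was added after seeing the data.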

Additional observations from a re-analysis of the deposited data

Results flagged for a closer look

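SERPINE2 moved in opposite directions in the matched pairs of each knockdown, by at least 1.5-fold each time. Its pairs differed by 1.88 in log2 for p53 shRNA and, by construction, by the same 1.88 for Pontin siRNA. With 1 array per group this difference was not tested. With a pseudocount of 16 the difference was 0.91. Pairs each past 1.5-fold in opposite directions, a wider class than a gap of this size, were seen for 2.45% (p53 shRNA) and 2.29% (Pontin siRNA) of genes kept that were not bright, and the SERPINE2 mean signal of 15.5 was just above the filter.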

How the results depend on the processing

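MGP and TFPI2 had a mean p53 log2 ratio of at least 1.74 and 1.19 under every alternative in which they were tested, and the calls did not change sign. Called members higher with p53 shRNA were 1 without _s_at, _x_at and _a_at probe sets (TFPI2) and 1 among bright genes (MGP), since the other was not tested there. The TIMP3 call was lost with the pseudocount and at 2-fold. Members called lower with Pontin siRNA were 0 there. They were also 0 with the mean over probe sets, without those probe set types and among bright genes, where TIMP3 was not tested. They were 2 without the array with both knockdowns (SERPINE2 and TIMP3). That setting also made 1 member lower with p53 shRNA, SERPINE2. Centring each array on its median moved the median over all genes to -0.135 for p53 shRNA and -0.159 for Pontin siRNA. The mean p53 ratio of TIMP2 was then -0.04 and that of TIMP3 -0.01.

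Counts over all genes moved with most settings, and the cause was not tested. Called higher and lower with p53 shRNA, 167 and 104 as deposited, were 97 and 183 after centring, 126 and 135 after quantile, 127 and 132 after cyclic loess, 55 and 56 with the pseudocount, 1188 and 719 without a filter, 17 and 32 among bright genes, 29 and 21 at 2-fold, and 607 and 455 without the array with both knockdowns. For Pontin siRNA, 140 and 150 as deposited, they were 55 and 246 after centring, 75 and 188 after quantile, 77 and 188 after cyclic loess, 34 and 104 with the pseudocount, 1186 and 735 without a filter, 14 and 85 among bright genes, 15 and 14 at 2-fold, and 513 and 469 without that array. Higher calls were 61.6% (p53 shRNA) and 48.3% (Pontin siRNA) of calls as deposited, 34.6% and 18.3% after centring, 48.3% and 28.5% after quantile, and 49% and 29.1% after cyclic loess. For Pontin siRNA they were 59.4% with the mean over probe sets and 61.7% without a filter.

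List genes called higher with p53 shRNA, 0 as deposited, were 1 after quantile and 1 after cyclic loess (VLDLR), 1 with the mean over probe sets (ADAM33), 1 without those probe set types (ENPP1), 5 without a filter and 6 without the array with both knockdowns. Called lower, also 0, they were 4 without a filter. With Pontin siRNA the 1 higher call was 0 after each normalization, with the pseudocount, without those types, among bright genes and at 2-fold, but 5 with the mean over probe sets, 5 without a filter and 5 without that array. The 3 lower calls were 1 with the pseudocount and 1 without those types (F3 both times), 2 after quantile and 2 after cyclic loess (BMP4 and F3, without ID1), 0 at 2-fold and 8 without a filter.

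No paired test was possible, because each group had 1 array. The matched pairs are the comparison reported, and an additive fit over the 4 arrays was not run. Array number and low signal limit these values: MGP and TIMP3 each rest on 1 probe set. Depth has no count on arrays.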
